A study of Populus alba x Populus glandulosa with 12 samples.

Results

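The genes of cytokinin metabolism and of the cytokinin response were followed in leaf RNA of a hybrid poplar, Populus alba × P. glandulosa. A gene was taken if the description of its paired Arabidopsis gene held one of the terms cytokinin, response regulator, histidine phosphotransfer, histidine-containing phospho, isopentenyltransferase or lysine decarboxylase. Another 7 genes that also held pseudo-response or CCT, the words of clock proteins, were left out. This gave 81 of the 34749 genes in the deposited table. The terms use no measured value, but they were chosen with earlier results of these data known. They fell into 8 enzymes of synthesis (IPT), 18 genes of the LOG and lysine decarboxylase family, 8 oxidases (CKX) and 11 phosphotransfer proteins (AHP). The others were 10 type-A, 12 type-B and 6 type-C response regulators (ARR) and 8 cytokinin response factors (CRF).

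Leaves were sampled from controls without the transgene (CK) and from 2 lines, line 2 and line 7, that overexpress (OE) PagSUPa, a zinc finger protein of the C2H2 type, with 4 RNA-seq libraries in each group. The labels give no age, no promoter and no event for the transgene, and leave unsaid if the replicates are different plants. A p-value here thus reflects how far these libraries scatter, which may be technical. Levels are TPM, a length-corrected share of all transcripts scaled to a fixed total, and gene names are those of the paired Arabidopsis genes.

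Cytokinins are adenine-derived plant hormones that promote cell division and delay leaf ageing. IPT enzymes add the isoprenoid side chain to adenine nucleotides, LOG enzymes release the active base, and CKX enzymes destroy it by cutting off the side chain. Histidine kinase receptors sense the hormone, AHP proteins carry the phosphate into the nucleus, and type-B response regulators then switch on target genes. Type-A response regulators are among those targets and dampen the signal. These roles are known mainly from Arabidopsis.

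TPM values do not record sequencing depth, so counting error could not be given. No gene in the table carries the name PagSUPa or SUPERMAN. A homolog of ZFP11, of the SUPERMAN family, lay at 0 to 0.112 TPM in controls and at 1210 to 1714 TPM in OE libraries. By the calls defined below, 34.0% of all tested genes were lower in both OE lines together and 22.1% higher. Against this background, of 10 tested mesophyll markers 4 fell and 0 rose. The 11 on the list, 1 of them too low to test, summed to 56818 to 67572 TPM in controls and 27764 to 62948 TPM in OE leaves, and 11 shoot meristem genes to at most 0.998 TPM. Of 23 tested phloem markers 19 fell and 0 rose, with summed levels of 407 to 837 TPM in controls and 118.9 to 472 TPM in OE leaves. Of 14 tested xylem markers 13 fell and 0 rose, from sums of 150.4 to 287 TPM to sums of 12.5 to 94.2 TPM. No marker gene of these lists was at 0 in all libraries. In bulk leaf RNA, fewer cells of a type and less RNA per cell cannot be told apart, and the part of these shifts in the results below was not tested. Control replicates 1 and 2 stood apart from replicates 3 and 4, with the lowest library weights of the series (0.318 and 0.514). For the cytokinin genes selected above, calls that rest on them are named. Whether calls of the marker genes, or of pathway genes outside that selection, rest on these controls was not tested.

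All 81 genes together held 0.0623% to 0.0767% of the TPM of a control library and 0.0619% to 0.0801% of that of an OE library. Genes were tested if 4 or more libraries reached 1 TPM, which 52 genes did. CKX3 met it through OE libraries alone and the ARR2 homolog Potri.014G077200 through control libraries alone, so the difference of each was built into the filter and its call supports nothing. Some other called genes met it in full only in the group where they were higher. Among them are Potri.001G265300 (1 control and 8 OE libraries at 1 TPM), Potri.003G197500 (2 and 8), both IPT5 homologs (3 and 8) and Potri.001G051000 (4 and 3). The difference of such genes may be partly built into the filter. Of the 29 untested genes, 26 stayed under 1 TPM in every library. Log2 fold changes are differences of mean log2(TPM + 1) between groups, tested with limma over all genes, and a gene is called higher or lower at a Benjamini-Hochberg adjusted p under 0.05.

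In both OE lines together, 16 of the 52 tested genes were called higher (30.8%, against 22.1% of all 24926 tested genes) and 15 lower (28.8%, against 34.0%). With 56.1% of all genes called in either direction, these totals lie near the background, and the results below concern which genes moved and how far. The median log2 fold change was 0.14 over the tested cytokinin genes and -0.13 over all genes. All 8 OE libraries lay above every control for 11 of the 52 genes (21.2%, against 14.6% of all genes) and below every control for 7 (13.5%, against 19.1%). Line 2 alone gave 13 higher and 17 lower genes (against 18.8% and 32.4% of all genes) and line 7 alone 15 higher and 9 lower (against 18.9% and 24.8%). Calls in either direction made up 51.2% of all genes in line 2 and 43.8% in line 7. The lines share their controls. Of the 31 genes called in both lines together, 21 were called in each line alone, each with the same sign in both. The joint contrast is the mean of the 2 line contrasts, so this agreement is partly built in. The matching count over all genes was not made. The direction of every called gene was the same under median ratio scaling of the libraries, which moved the median of all genes from -0.13 to 0.02 on the log2 scale. Genes called higher under that scaling but not for TPM as deposited were IPT9 (0.33, adjusted p = 0.0256), the AHP1 homolog Potri.010G027100 (0.44, adjusted p = 0.0187), the ARR12 homolog Potri.018G021300 (0.52, adjusted p = 0.00328), the ARR2 homolog Potri.010G001000 (0.48, adjusted p = 0.00345) and the CRF4 homolog Potri.019G131300 (0.76, adjusted p = 0.0408). Under that scaling, 21 cytokinin genes were higher and 13 lower. Of all genes, 7527 were then higher and 6753 lower, against 5511 and 8469 for TPM as deposited. The share of all calls that were higher was thus 52.7%, against 39.4% for TPM as deposited, so the background moved as well.

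**Figure D1:**
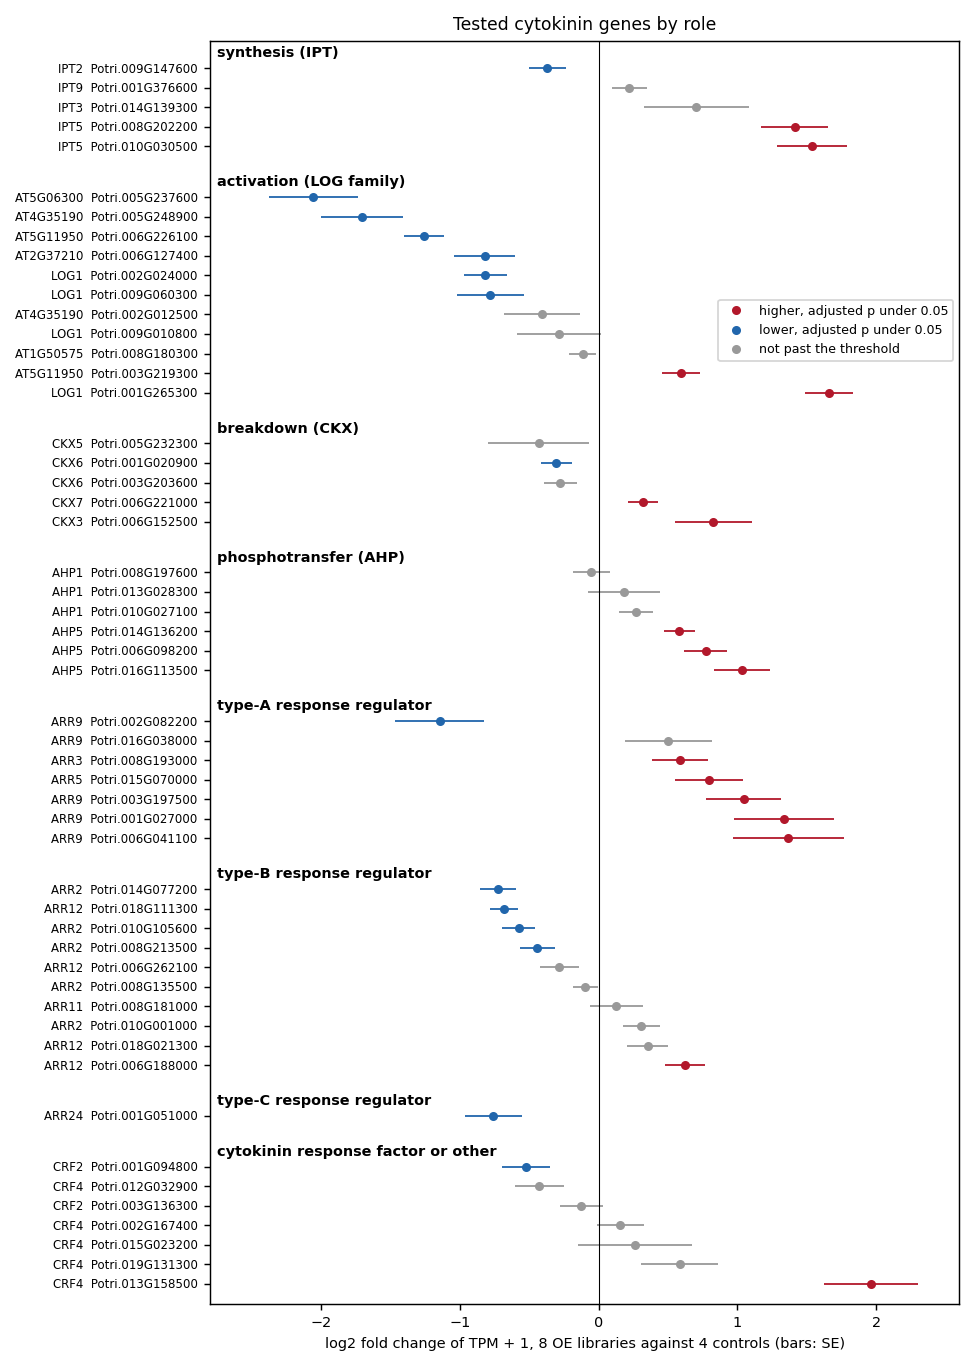
Log2 fold changes of TPM + 1 of the 52 tested cytokinin genes in 8 OE libraries against 4 controls, grouped by role, with bars for the SE and colours for calls at an adjusted p under 0.05. Both IPT5 homologs and all 3 tested AHP5 homologs lie to the right of 0, and the 3 largest falls are in the LOG family.

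Synthesis was examined first. The homologs of IPT5, an adenylate-type enzyme that makes the first committed cytokinin precursor, rose, while 1 of the other 3 tested genes of the class was lower and the others were not called. The background was 22.1% of all genes higher and 34.0% lower. Potri.008G202200 was at 0.455, 1.39, 1.48 and 3.11 TPM in controls 1 to 4, 7.25, 5.32, 4.002 and 5.48 TPM in line 2 and 4.61, 4.52, 7.504 and 6.13 TPM in line 7. The other homolog, Potri.010G030500, was at 0.647, 1.08, 1.74 and 1.59 TPM in controls 1 to 4, 8.89, 4.45, 5.904 and 6.55 TPM in line 2 and 4.57, 3.02, 9.34 and 3.64 TPM in line 7. Every OE library exceeded every control for both genes. Mean levels were 3.48 times and 4.58 times as high as in controls (log2 fold change 1.41, SE 0.24, limma adjusted p = 0.000742, and log2 fold change 1.54, SE 0.25, limma adjusted p = 0.000557). In the single lines the first homolog changed by 1.39 in line 2, with an adjusted p of 0.00229, and 1.43 in line 7, with one of 0.00268, and the second by 1.71 in line 2, with an adjusted p of 0.000906, and 1.37 in line 7, with one of 0.00419. The 2 genes share a paired locus, and how reads were divided between such similar copies is uncertain, here and for the other homologs below.

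IPT3, an adenylate-type enzyme known in Arabidopsis from phloem and from its response to nitrate, was at 0.426, 1.27, 6.87 and 2.24 TPM in controls 1 to 4, 5.12, 7.12, 6.51 and 3.73 TPM in line 2 and 2.83, 1.97, 1.94 and 4.71 TPM in line 7. Its control replicate 3 exceeded all but 1 of the line 2 libraries, the groups overlapped, and it was not called (log2 fold change 0.70, SE 0.38, limma adjusted p = 0.13). Without control replicates 1 and 2 the change was -0.04. It had the largest difference between the lines of all tested cytokinin genes, -0.80 on the log2 scale for line 7 minus line 2, but was not called by limma. IPT2, a tRNA-type enzyme, belongs to the branch that gives cis-zeatin. It was lower in OE leaves, from 2.49 ± 0.722 to 1.67 ± 0.247 TPM (log2 fold change -0.37, SE 0.13, limma adjusted p = 0.0317), and 8 of 21 alternatives ended the call, including those without control replicate 1 or 2, line 2 replicate 1 or 3, or line 7 replicate 1. IPT9, the other tRNA-type enzyme, was at 0.966 to 2.08 TPM in controls and 1.41 to 2.06 TPM in OE leaves and was not called (0.22, adjusted p = 0.143). The 2 IPT1 homologs stayed at or below 0.523 TPM and a further IPT5 homolog, Potri.008G033300, at or below 0.015 TPM in every library.

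The LOG and lysine decarboxylase family, whose Arabidopsis members release active cytokinin bases from their nucleotides, went mostly the other way. Of 11 tested genes, 6 fell and 2 rose (against 34.0% and 22.1% of all genes), with a median log2 fold change of -0.78 against -0.13 over all genes. Summed over all 18 genes, the family stood at 151.5 to 214 TPM in controls and 63.6 to 104.5 TPM in OE libraries.

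The largest fall of any cytokinin gene was in the homolog of AT5G06300, Potri.005G237600. It was at 66.3, 44.8, 36.2 and 42.7 TPM in controls 1 to 4, 9.63, 6.59, 16.4 and 4.67 TPM in line 2 and 16.3, 20.8, 6.95 and 10.7 TPM in line 7. Every OE library lay below every control, and the mean was 4.13 times lower (log2 fold change -2.06, SE 0.32, limma adjusted p = 0.000439). Line 7 replicate 2 kept the highest OE level, and its line difference of 0.54 (not called) was the second largest after IPT3. The homolog of AT5G11950, Potri.006G226100, was at 63.1, 41.5, 41.1 and 36.5 TPM in controls 1 to 4, 18.97, 18.3, 21.3 and 14.4 TPM in line 2 and 18.7, 17.2, 17.8 and 18.05 TPM in line 7. The OE libraries of this gene spread little, and all lay below the controls (log2 fold change -1.26, SE 0.14, limma adjusted p = 5.68e-05). The homolog of AT4G35190, Potri.005G248900, was at 10.4, 22.04, 15.8 and 24.1 TPM in controls 1 to 4, 3.31, 2.61, 6.302 and 6.42 TPM in line 2 and 3.45, 8.16, 3.07 and 5.93 TPM in line 7. It too was separate, with a mean 3.69 times lower in OE leaves (log2 fold change -1.70, SE 0.30, limma adjusted p = 0.000798).

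Homologs of LOG1 itself were called in both directions. Potri.001G265300 was at 1.24, 0.577, 0.713 and 0.388 TPM in controls 1 to 4, 4.56, 3.101, 5.39 and 3.09 TPM in line 2 and 6.05, 5.04, 3.52 and 5.08 TPM in line 7. All OE libraries lay above the controls, with a mean 6.13 times as high (log2 fold change 1.66, SE 0.18, limma adjusted p = 3.58e-05), and the single lines gave 1.54 in line 2, with an adjusted p of 0.000206, and 1.78 in line 7, with one of 0.000109. Potri.002G024000, the LOG1 homolog of highest level, fell instead, from 28.2 ± 2.63 to 15.8 ± 3.09 TPM (-0.82, adjusted p = 0.0015), and all its OE libraries lay below the controls. Potri.009G060300 fell from 2.14 ± 1.3 to 0.731 ± 0.3905 TPM (-0.78, adjusted p = 0.0173), but this call was lost without control replicate 1 or 2 or with library weights. Potri.009G010800 was at 5.299 to 8.15 TPM in controls and 2.85 to 9.82 TPM in OE leaves and was not called (-0.29, adjusted p = 0.432). The homologs of AT5G11950 were likewise split, since Potri.003G219300 rose from 1.399 ± 0.387 to 2.599 ± 0.464 TPM (0.59, adjusted p = 0.00402) with all OE libraries above the controls.

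The homolog of AT2G37210, Potri.006G127400, fell from 15.5 ± 3.703 to 8.48 ± 2.61 TPM (-0.82, adjusted p = 0.00808), with overlapping groups, and missed the threshold without control replicates 1 and 2 (adjusted p = 0.111). Potri.002G012500 and Potri.008G180300, paired with AT4G35190 and AT1G50575, were not called (-0.41, adjusted p = 0.214, and -0.11, adjusted p = 0.332). The 7 untested genes of the family stayed at or below 0.947 TPM.

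**Figure D2:**
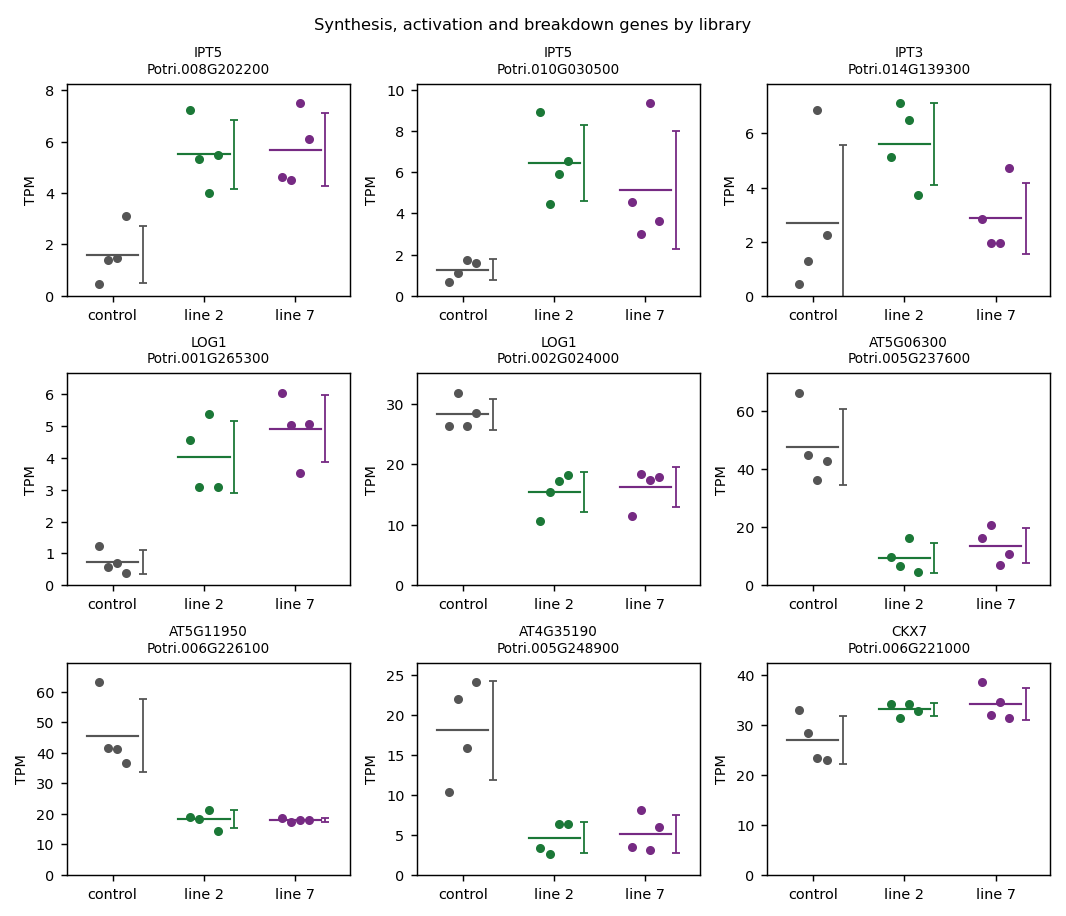
TPM of 9 genes of cytokinin synthesis, activation and breakdown in each library (points), with group means (lines) and SD (bars, n = 4 per group, cut at 0 for IPT3). Points within a group are in order of replicate number. Both IPT5 homologs and 1 LOG1 homolog are higher in every OE library than in any control, and 4 genes of the LOG family are lower in every OE library.

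Of 5 tested breakdown genes 2 rose, 1 fell and 2 were not called (against 22.1% higher and 34.0% lower of all genes). The count of rises includes CKX3, which passed the filter through OE libraries alone. CKX7, the oxidase of highest level here and known as a cytosolic form, was at 33.1, 28.4, 23.4 and 23.05 TPM in controls 1 to 4, 34.1, 31.4, 34.1 and 32.8 TPM in line 2 and 38.5, 32.02, 34.5 and 31.5 TPM in line 7. Only control replicate 1 reached the range of the OE libraries, and the rise was small (log2 fold change 0.32, SE 0.11, limma adjusted p = 0.0271). The single lines gave 0.30 in line 2, with an adjusted p of 0.0654, and 0.34 in line 7, with one of 0.0473. Its call was lost without control replicate 3 or 4, with adjusted p-values up to 0.0909.

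CKX3 was low everywhere, at 0, 0.293, 0.051 and 0.551 TPM in controls 1 to 4, 0.554, 1.63, 0.298 and 1.18 TPM in line 2 and 0.625, 0.772, 2.25 and 3.02 TPM in line 7. The groups overlapped, and the rise passed in both lines together (log2 fold change 0.83, SE 0.28, limma adjusted p = 0.024), with a mean 5.77 times as high. It was lost without control replicate 1 or 3, without control replicates 1 and 2 together (adjusted p = 0.168) and under quantile normalization. Of the 2 tested CKX6 homologs, Potri.001G020900 was lower, from 2.29 ± 0.352 to 1.67 ± 0.317 TPM (-0.31, adjusted p = 0.0373), a call that 11 of 21 alternatives ended, among them those without control replicate 1 or 2, line 2 replicate 2 or 3, or line 7 replicate 1, 2 or 4, and Potri.003G203600 was not called (-0.28, adjusted p = 0.0666). CKX5, a gene known from Arabidopsis for limiting cytokinin in reproductive meristems, was at 2.58, 6.22, 2.04 and 4.18 TPM in controls 1 to 4, 1.78, 2.08, 3.44 and 2.17 TPM in line 2 and 4.96, 4.78, 1.23 and 0.603 TPM in line 7. Within line 7, replicates 1 and 2 were high and replicates 3 and 4 low, and no call was made (-0.43, adjusted p = 0.325). The remaining CKX5 homolog reached at most 1.101 TPM and the 2 CKX1 homologs at most 0.09 TPM.

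Among phosphotransfer proteins, which relay the phosphate between receptors and response regulators, the 3 tested AHP5 homologs rose and the 3 tested AHP1 homologs were not called. Of all genes, 22.1% were called higher and 34.0% lower. Potri.016G113500 was at 6.26, 7.101, 6.58 and 6.87 TPM in controls 1 to 4, 11.3, 19.1, 11.3 and 22.2 TPM in line 2 and 11.8, 10.9, 19.8 and 16.1 TPM in line 7. Controls were tightly grouped and every OE library was higher (log2 fold change 1.03, SE 0.20, limma adjusted p = 0.00155). Potri.006G098200 was at 2.96, 3.33, 3.06 and 2.76 TPM in controls 1 to 4, 4.02, 6.78, 5.53 and 8.35 TPM in line 2 and 4.96, 5.11, 6.67 and 6.37 TPM in line 7, again with no overlap (log2 fold change 0.77, SE 0.15, limma adjusted p = 0.00165). Potri.014G136200 rose from 2.503 ± 0.5104 to 4.22 ± 0.447 TPM (0.58, adjusted p = 0.00152) and was separate as well. Each of the 3 was called in line 2 and in line 7 alone, with adjusted p-values from 0.00324 to 0.00692, and in every alternative that tested it.

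In mean level over all libraries, 2 AHP1 homologs and a CRF4 homolog stood above all other cytokinin genes, at 80.4 to 88.8 TPM. Potri.010G027100 was at 67.01 to 89.98 TPM in controls and 77.01 to 114 TPM in OE leaves (0.27, adjusted p = 0.0811) and Potri.008G197600 at 73.8 to 90.6 TPM in controls and 64.8 to 95.97 TPM in OE leaves (-0.05, adjusted p = 0.747). The small change of the latter turned to 0.12 under median ratio scaling. Potri.013G028300 was lower in level, at 4.85 to 10.6 TPM in controls and 5.298 to 13.3 TPM in OE leaves, and was not called (0.18, adjusted p = 0.561). The homolog of AHP6, a protein without the phosphorylated histidine that inhibits cytokinin signalling in Arabidopsis, stayed at or below 0.105 TPM. The other 4 untested phosphotransfer genes were at or below 0.131 TPM.

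Type-A response regulators are the feedback targets of the pathway. Of 7 tested genes, 5 rose and 1 fell (against 22.1% and 34.0% of all genes), with a median log2 fold change of 0.80 against -0.13 over all genes. ARR5, used widely as a readout of cytokinin signalling in Arabidopsis, was at 24, 26.04, 22.6 and 12.3 TPM in controls 1 to 4, 31.8, 51.2, 30.6 and 37.2 TPM in line 2 and 32.5, 22.5, 42.3 and 51.8 TPM in line 7. Line 7 replicate 2 lay within the control range and the other OE libraries lay above it (log2 fold change 0.80, SE 0.25, limma adjusted p = 0.0175). The call was lost without control replicate 4, the lowest control (adjusted p = 0.0625).

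ARR9, another type-A gene, had 5 tested homologs. Potri.006G041100 was at 13.1, 7.76, 5.902 and 5.04 TPM in controls 1 to 4, 13.3, 25.8, 23.4 and 15.6 TPM in line 2 and 10.7, 15.6, 26.6 and 61.9 TPM in line 7. Line 7 replicate 4 was far above the others and control replicate 1 exceeded line 7 replicate 1 (log2 fold change 1.37, SE 0.40, limma adjusted p = 0.0131). Potri.001G027000 was at 0.856, 1.001, 1.602 and 1.08 TPM in controls 1 to 4, 2.64, 10.4, 2.33 and 10.8 TPM in line 2 and 2.73, 2.098, 4.903 and 5.1 TPM in line 7. Replicates 2 and 4 of line 2 stood out, and even the lowest OE library lay above the controls (log2 fold change 1.34, SE 0.36, limma adjusted p = 0.00883). Without control replicates 1 and 2 its change was 1.202 with an adjusted p of 0.106. Potri.003G197500 rose from 0.968 ± 0.252 to 3.31 ± 1.69 TPM (1.04, adjusted p = 0.00722), also with no overlap.

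The ARR9 homolog, Potri.002G082200, fell. It was at 14.2, 12.8, 6.96 and 7.101 TPM in controls 1 to 4, 5.57, 4.34, 3.24 and 1.84 TPM in line 2 and 2.196, 2.704, 6.69 and 7.22 TPM in line 7. Control replicates 1 and 2 were the highest of all libraries, and line 7 replicate 4 lay above the other controls (log2 fold change -1.15, SE 0.32, limma adjusted p = 0.0106). Without these controls the change was -0.72 with an adjusted p of 0.197. The most abundant homolog, Potri.016G038000, was at 9.54 to 25.1 TPM in controls and 12.8 to 44.6 TPM in OE leaves and was not called (0.50, adjusted p = 0.191).

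The ARR3 homolog Potri.008G193000 rose from 11.6 ± 2.75 to 18.03 ± 4.65 TPM (0.59, adjusted p = 0.0277), with overlapping groups, and was no longer called without control replicate 3 or 4, without line 2 replicate 2 or with the replicate number as a block. Of the untested type-A genes, a further ARR3 homolog reached 0.739 TPM. The 2 homologs of ARR17, a gene known in poplars for its part in determining the sex of flowers, stayed at or below 0.423 TPM in these leaves.

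**Figure D3:**
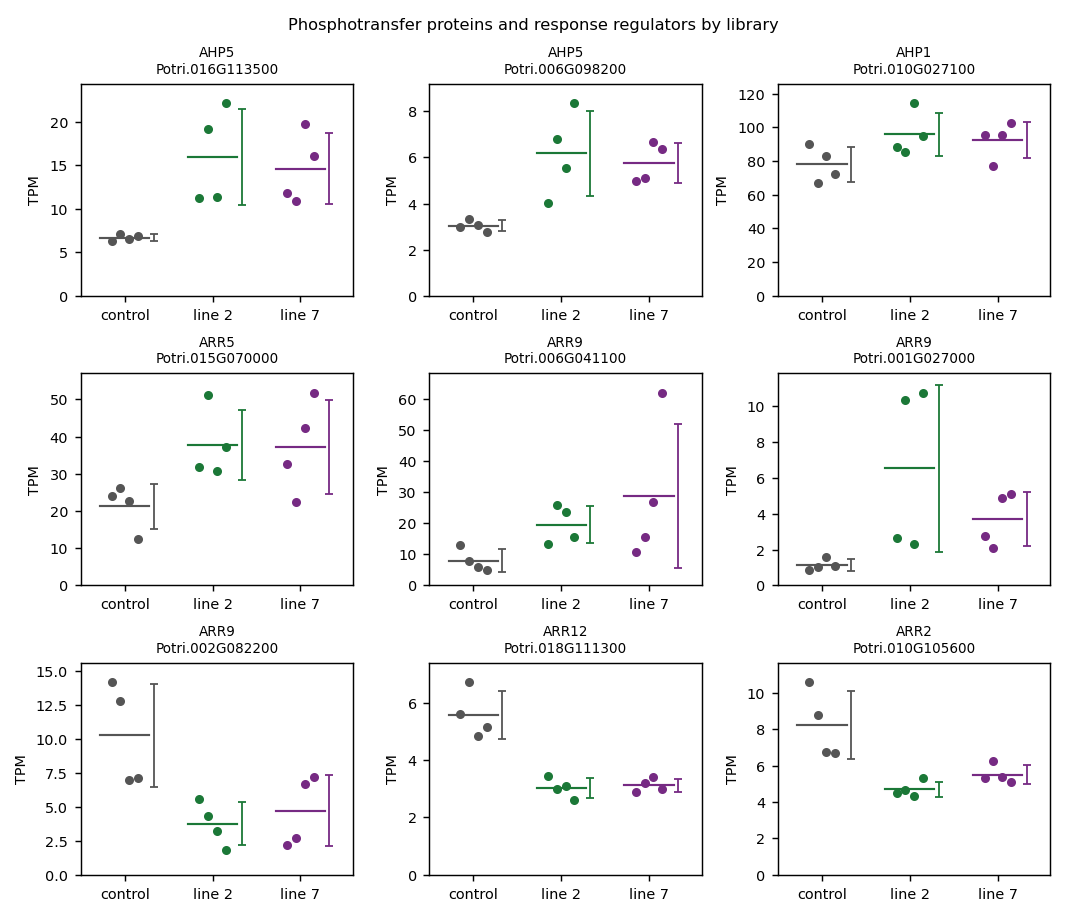
TPM of 3 phosphotransfer genes, 4 type-A and 2 type-B response regulators in each library (points), with group means (lines) and SD (bars, n = 4 per group). Points within a group are in order of replicate number. Both AHP5 homologs lie above all controls in every OE library, the ARR12 and ARR2 homologs shown lie below, and 1 of 4 type-A genes shown is lower in OE leaves.

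Type-B response regulators, the transcription factors that act on the signal, moved in both directions. Of 10 tested genes, 4 fell and 1 rose (against 34.0% and 22.1% of all genes), with a median log2 fold change of -0.19 against -0.13 over all genes. This count includes Potri.014G077200, which passed the filter through control libraries alone. The split was 3 higher and 3 lower under median ratio scaling, and 3 higher and 4 lower under quantile normalization or with library weights. Over all genes, 52.7% of calls were higher under median ratio scaling, against 39.4% for TPM as deposited. Summed over all 12 genes, levels overlapped, with 110.3 to 142 TPM in controls and 107.4 to 139.5 TPM in OE leaves.

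The ARR12 homolog Potri.018G111300 was at 5.59, 6.71, 4.82 and 5.13 TPM in controls 1 to 4, 3.43, 2.999, 3.09 and 2.59 TPM in line 2 and 2.895, 3.19, 3.41 and 3.004 TPM in line 7. The OE libraries were tightly grouped below all controls (log2 fold change -0.68, SE 0.10, limma adjusted p = 0.000291). Another ARR12 homolog, Potri.006G188000, was at 3.36, 3.54, 4.23 and 3.71 TPM in controls 1 to 4, 5.71, 5.21, 8.3 and 6.57 TPM in line 2 and 5.57, 4.52, 7.73 and 7.03 TPM in line 7. Here every OE library lay above the controls (log2 fold change 0.62, SE 0.14, limma adjusted p = 0.00401), though not past the threshold without control replicates 1 and 2 (adjusted p = 0.0633). The remaining ARR12 homologs, Potri.006G262100 and Potri.018G021300, were not called in both lines together (-0.28, adjusted p = 0.107, and 0.35, adjusted p = 0.0568), the former being lower in line 2 alone (-0.42, adjusted p = 0.0479) and the latter higher under median ratio scaling.

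ARR2, linked in Arabidopsis with the delay of leaf ageing, had 5 tested homologs, of which 3 fell, including the 1 tested through its control libraries alone. Potri.010G105600 was at 10.6, 8.801, 6.77 and 6.68 TPM in controls 1 to 4, 4.52, 4.68, 4.32 and 5.29 TPM in line 2 and 5.31, 6.27, 5.36 and 5.09 TPM in line 7. All OE libraries lay below the controls (log2 fold change -0.58, SE 0.12, limma adjusted p = 0.00239), and control replicates 1 and 2 were the highest of all. Potri.014G077200 fell from 1.92 ± 0.506 to 0.755 ± 0.189 TPM (-0.73, adjusted p = 0.00104) and Potri.008G213500 from 22.5 ± 1.98 to 16.5 ± 2.899 TPM (-0.44, adjusted p = 0.0108). The latter was not called under median ratio scaling or without control replicates 1 and 2 (adjusted p = 0.139).

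Of the other ARR2 homologs, not called for TPM as deposited, Potri.010G001000 was at 22.9 to 33.7 TPM in controls and 28.5 to 41.9 TPM in OE leaves (0.31, adjusted p = 0.0651) and was higher under median ratio scaling. The other homolog, Potri.008G135500, was at 20.3 to 24.1 TPM in controls and 17.9 to 23.3 TPM in OE leaves (-0.10, adjusted p = 0.373, and 0.07 under median ratio scaling). A sixth homolog, Potri.002G152900, reached the filter level in too few libraries to be tested and is named after its values were seen. It was at 2.83, 1.87, 0.905 and 0.80 TPM in controls 1 to 4, 0.32, 0.413, 0.406 and 0.184 TPM in line 2 and 0.446, 0.50, 0.218 and 0.358 TPM in line 7, and every OE library lay below the controls. ARR11 was not called (Potri.008G181000, 0.13, adjusted p = 0.586), and a second ARR11 homolog stayed at or below 0.427 TPM.

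Of 6 type-C response regulators, known in Arabidopsis mainly from flowers and fruits, only the ARR24 homolog Potri.001G051000 was tested. It was at 3.15, 3.13, 1.09 and 1.47 TPM in controls 1 to 4, 0.61, 1.05, 0.52 and 0.45 TPM in line 2 and 1.18, 1.43, 0.60 and 0.873 TPM in line 7. Control replicates 1 and 2 were more than 2 times as high as replicates 3 and 4, and line 7 replicates 1 and 2 overlapped the lower controls (log2 fold change -0.76, SE 0.21, limma adjusted p = 0.00908). Without control replicates 1 and 2 the change was -0.33 with an adjusted p of 0.203. The other 5 genes reached at most 0.698 TPM.

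Cytokinin response factors are AP2-type transcription factors, some of which are induced by the hormone. Of 7 tested genes 1 rose and 1 fell (against 22.1% and 34.0% of all genes). The CRF4 homolog Potri.013G158500 was at 1.998, 2.502, 1.85 and 1.49 TPM in controls 1 to 4, 5.21, 11.1, 6.77 and 24.8 TPM in line 2 and 10.97, 17.2, 10.6 and 6.68 TPM in line 7. Every OE library lay above the controls, with the highest value in line 2 replicate 4, and the mean was 5.96 times as high (log2 fold change 1.96, SE 0.34, limma adjusted p = 0.000757). This was the largest rise among the tested cytokinin genes on the log2 scale.

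The most abundant CRF4 homolog, Potri.019G131300, was at 38.8, 82.8, 59.3 and 60.5 TPM in controls 1 to 4, 74.3, 122, 51.3 and 144 TPM in line 2 and 62.1, 103, 85.7 and 95.9 TPM in line 7. It overlapped between groups and was not called (0.58, adjusted p = 0.0935). Potri.015G023200 was at 5.48 to 15.4 TPM in controls and 5.32 to 26.3 TPM in OE leaves (0.26, adjusted p = 0.601). In every group its replicates differed by more than 2 times. Potri.012G032900 and Potri.002G167400 were not called in both lines together (-0.43, adjusted p = 0.0561, and 0.15, adjusted p = 0.449), the former being lower in line 2 alone (-0.63, adjusted p = 0.0236). The CRF2 homolog Potri.001G094800 was lower, from 2.51 ± 1.04 to 1.39 ± 0.366 TPM (-0.52, adjusted p = 0.0223), a call lost without control replicate 1 or with library weights, and the other CRF2 homolog was not called (-0.13, adjusted p = 0.499). The CRF5 homolog was not tested and lay at or below 1.78 TPM.

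Homologs of 1 Arabidopsis gene were not always called alike. Of 12 paired loci with at least 2 tested poplar genes, 4 had called homologs in both directions (LOG1, AT5G11950, ARR9 and ARR12), 7 had calls in 1 direction only, and AHP1 had none. No such count was made over all paired loci, so these splits are not shown to be particular to cytokinin genes. Log2 fold changes spanned -1.15 to 1.37 among ARR9 homologs, -0.82 to 1.66 among LOG1 homologs and -0.43 to 1.96 among CRF4 homologs.

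**Figure D4:**
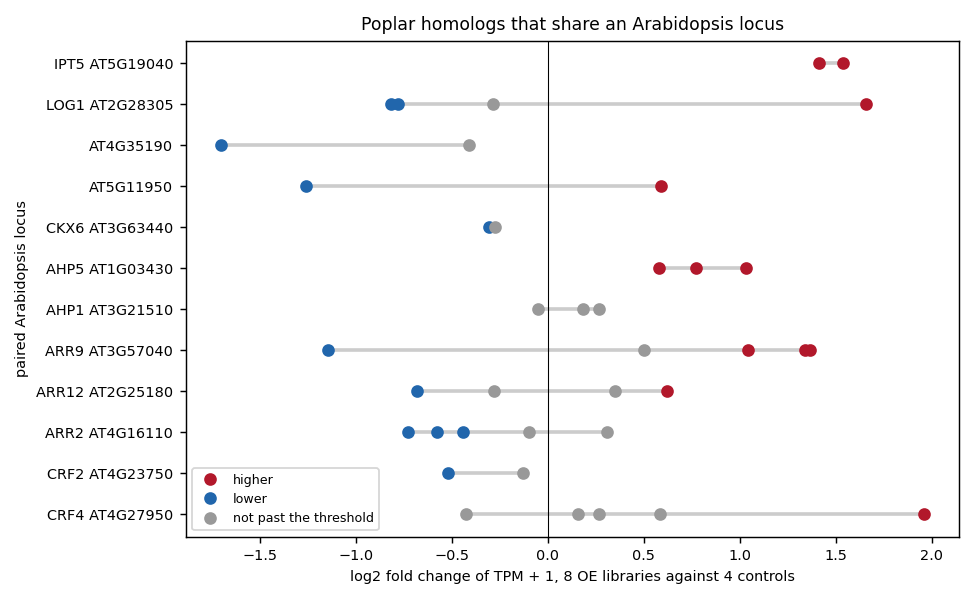
Log2 fold changes of TPM + 1 in 8 OE libraries against 4 controls for each tested poplar gene (points), by the Arabidopsis locus it is paired with. Grey lines span the homologs of a locus and colours mark calls at an adjusted p under 0.05. IPT5 and AHP5 homologs were all called higher, while LOG1, AT5G11950, ARR9 and ARR12 hold calls of both directions.

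Line 7 was compared with line 2. No cytokinin gene was called by limma, and 0 of the 52 reached an unadjusted p under 0.05. Of all 24926 genes, 0.00% were called and 418 reached an unadjusted p under 0.05. The smallest adjusted p over all genes was 0.661. A difference that misses the threshold does not show that the lines are alike.

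Genes of the pathway outside the 81 were taken from a list of receptors, transporters, glucosyltransferases, salvage enzymes, F-box proteins and GATA factors. Of 55 such poplar genes, 39 were tested, 10 rose and 10 fell (background 22.1% and 34.0% of all genes). Among 8 tested histidine kinases 3 fell and 0 rose, to be read against the same background. One of 2 AHK3 homologs, a cytokinin receptor linked with leaf ageing, fell from 30.9 ± 7.36 to 16.4 ± 1.87 TPM (Potri.003G171000, -0.85, adjusted p = 0.000575), while the other was not called. Neither AHK4 homolog was called. The third that fell, named after its values were seen, was AHK2, the remaining receptor, from 11.8 ± 2.74 to 8.499 ± 1.04 TPM (Potri.014G164700, -0.41, adjusted p = 0.0285). Its groups overlapped, with controls 1 to 4 at 13.8, 14.3, 10.3 and 8.67 TPM and OE libraries at 7.18 to 9.78 TPM. Control replicates 1 and 2 were thus the highest, and line 7 alone was not called (limma adjusted p = 0.0669). AHK1, a histidine kinase that is not a cytokinin receptor, fell from 8.56 ± 1.85 to 2.7 ± 0.899 TPM (Potri.005G111700, -1.40, adjusted p = 0.000421).

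Of 9 tested transporter genes 6 rose and 0 fell (against 22.1% and 34.0% of all genes). Of the 6, 2 ENT3 homologs, Potri.004G032400 and Potri.011G041201, passed the filter through OE libraries alone, so their rise was built into it. A homolog of ENT3, a nucleoside carrier that can import cytokinin ribosides, rose from 4.75 ± 2.08 to 20.5 ± 8.07 TPM (Potri.019G118400, 1.89, adjusted p = 0.000597). AZG1, a purine carrier, rose from 5.53 ± 1.61 to 16.2 ± 5.04 TPM (Potri.013G083300, 1.37, adjusted p = 0.00068). Every OE library lay above the controls for both. The homolog of APT1, which turns cytokinin bases back into nucleotides, was at 14.7, 17.9, 14.9 and 14.9 TPM in controls 1 to 4, 31.2, 35.4, 30.2 and 41.3 TPM in line 2 and 35.1, 28.9, 41.5 and 38.3 TPM in line 7. Its groups were far apart (log2 fold change 1.12, SE 0.12, limma adjusted p = 3.91e-05).

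Both homologs of GNC, a GATA factor that cytokinin induces and that promotes greening, were lower, Potri.006G229200 from 95.2 ± 15.2 to 33.6 ± 7.17 TPM (-1.49, adjusted p = 8.68e-05) and Potri.018G053600 from 114 ± 5.16 to 63.4 ± 17.99 TPM (-0.90, adjusted p = 0.00739). Of 11 tested glucosyltransferases, 5 fell and 3 rose (against 34.0% and 22.1% of all genes). Homologs of UGT85A1, which can glucosylate zeatin, made up all 5 that fell and 2 of the 3 that rose. Among those that fell, Potri.006G022300 fell from 6.703 ± 1.21 to 2.57 ± 0.611 TPM (-1.12, adjusted p = 8.67e-05) and Potri.006G022500 from 2.06 ± 0.354 to 0.7202 ± 0.231 TPM (-0.83, adjusted p = 0.000292), both with every OE library below the controls. Potri.006G022500 lay at 0.352 to 1.015 TPM in OE libraries, so its difference may be partly built into the filter. The 3 that rose, named after their values were seen, were the UGT85A1 homologs Potri.016G022200 (1.15, adjusted p = 0.000636) and Potri.016G021700 (0.55, adjusted p = 0.041) and the UGT73C5 homolog Potri.012G048700, from 18.2 ± 6.56 to 82.3 ± 37.95 TPM (2.07, adjusted p = 0.000468). None of the 6 tested homologs of the KMD F-box proteins, which target type-B regulators for breakdown, was called in both lines together. In line 7 alone 2 of them were higher (against 18.9% of all genes), the KMD1 homolog Potri.001G178300 (1.24, adjusted p = 0.033) and the KMD4 homolog Potri.007G147000 (0.79, adjusted p = 0.0268), both named after their values were seen. The KMD1 homolog was at 1.22, 1.18, 8.095 and 5.58 TPM in line 7 replicates 1 to 4. Neither gene was called in line 7 against line 2. The 2 homologs of CYP735A1, which makes trans-zeatin forms, stayed at or below 0.95 TPM.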

How the data were processed

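Leaf RNA was reverse transcribed from an oligo(dT) primer and amplified as SMARTer cDNA, per the labels' protocols. The authors deposited 1 table of TPM for 12 libraries. The submitters' processing notes list cutadapt, FastQC and Salmon, with no versions or roles. For the genome build and annotation, the sources used here give none, and no sequences or coordinates are printed. TPM carries no depth, so the number of libraries limits the precision.

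Testing took in 24926 of 34749 genes, those that reached 1 TPM in 4 or more of the 12 libraries, and was done on log2(TPM + 1) with limma 3.58.1 in R 4.3.3. One fit held the control, line 2 and line 7 groups, with a mean-variance trend and Benjamini-Hochberg adjustment over all tested genes. Log2 fold changes understate the change of low genes on this scale. Replicate numbers were not treated as pairs, since the labels give them no shared origin. Same-numbered libraries correlated above 0.1 in their deviations in 9 of 12 pairs, against 9 of 36 other pairs. Whether they share an origin was not tested, and a fit with the number as a block is given below. The genes and gene lists were chosen with earlier results of these data known. Genes were picked for values by library as, per class, up to 4 tested genes of smallest p and the 2 of highest mean TPM. Over all classes, the 2 with the largest difference between lines were added. For some of these genes only a mean with SD, a range or a fold change is printed. Genes outside the 81 are named for up to 2 of smallest p per class. Alternatives were other pseudocounts, filters, scalings and weights, an untrended fit, a fit of only the compared groups, the replicate number as a block, and libraries left out.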

Additional observations from a re-analysis of the deposited data

How the results depend on the processing

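The counts of called genes were recomputed under up to 23 alternatives. Without control replicates 1 and 2 together, 6 genes were lower in both lines together, 6 in line 2 and 3 in line 7, and of the 29 called genes still tested 19 kept their call, 10 lost it and 0 reversed. With a mean TPM of at least 5, which left 27 genes to test, 7 were higher and 8 lower in both lines together, 5 higher and 9 lower in line 2, and 7 higher in line 7. In line 2, 21 genes were higher under median ratio scaling and 22 with library weights. Leaving out 1 library at a time gave 13 to 18 higher and 11 to 16 lower genes in both lines together, 10 to 14 and 12 to 17 in line 2, and 10 to 15 and 5 to 11 in line 7, the 5 without control replicate 2; line 7 against line 2 gave 0 throughout. The first 2 of these alternatives left fewer libraries or fewer genes to test. The shares of all genes called under these alternatives are not printed here, and such shares can move with the setting. Over all genes, both lines together gave 7527 higher and 6753 lower under median ratio scaling, against 5511 and 8469 for TPM as deposited. The shifts in these counts are thus not shown to be particular to cytokinin genes, and their cause was not tested. Uncalled genes whose sign reversed were Potri.008G197600 (0.12 under median ratio scaling, 0.0143 with library weights and 0.0169 without control replicates 1 and 2), Potri.008G135500 (0.0720 under median ratio scaling and 0.0098 without those controls), Potri.008G180300 (0.04 under median ratio scaling and 0.07 under quantile normalization), Potri.003G136300 (0.01 and 0.06 under these, and 0.02 without those controls) and Potri.014G139300 (-0.0418 without those controls). With the replicate number as a block, 16 genes were higher and 14 lower in both lines together; same-numbered libraries correlated at -0.47 to 0.41 in their deviations, above 0.1 in 9 of 12 pairs against 9 of 36 other pairs, and 5 of 12 libraries correlated best with their own number. The depth behind each TPM is unknown.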

Other observations

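Among the 8 OE libraries, the 4 highest were line 2 replicates 2 and 4 and line 7 replicates 3 and 4 for 7 of the 52 tested cytokinin genes. These were CKX3, 2 AHP5 homologs, ARR5, 2 ARR9 homologs and an ARR12 homolog. The same 4 libraries were highest for 9.68% of all tested genes, against 13.5% of the cytokinin genes. The pattern was picked after the values were seen, and no test was made of it.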
